A study of Homo sapiens with 9 samples.

Results

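Messenger RNA of 8 genes that set whether a cell dies by apoptosis was followed in cultures of K562, a human erythroleukaemia line derived from chronic myeloid leukaemia. The genes are the caspases CASP2, CASP6, CASP8, CASP9 and CASP10, the caspase-like inhibitor CFLAR and the survival proteins BCL2L1 and MCL1, chosen by symbol, and all 8 matched 1 of the 63677 Ensembl gene IDs counted. The series holds 9 libraries: the parental line with wild-type SRSF2, 4 CRISPR clones with wild-type SRSF2 (W19, W33, W36 and W42, here WT clones) and 4 CRISPR clones with the SRSF2 P95H mutation (P9, P15, P22 and P38, here P95H clones). SRSF2 is a serine- and arginine-rich splicing factor, and the series was set up to look at splicing in clones with the mutant or the unmutated protein. The counts are per gene, so the question addressed here is whether the level of each gene differed between the groups and from clone to clone. Each clone is 1 library from a line grown from it, the labels do not say how many copies carry P95H or whether the clones arose separately, and p-values therefore measure the spread between these libraries only.

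Apoptosis is carried out by caspases, proteases made as inactive precursors. Ligand-bound death receptors gather the initiator caspases CASP8 and CASP10 through adaptors, and CFLAR, which looks like CASP8 but lacks its activity, competes with them there. Damage inside the cell instead opens the outer mitochondrial membrane, whereupon cytochrome c and APAF1 activate CASP9, and BCL2L1 (BCL-XL) and MCL1 keep that membrane closed. CASP2 is an initiator activated on the PIDDosome, and CASP6 is cut by other caspases and cleaves lamins. In the red cell lineage BCL-XL is known for keeping maturing erythroblasts alive.

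Several of these genes make proteins of different or opposite effect from 1 gene by alternative splicing, and a count per gene adds up all of the forms. The coding stretches below are shown for that reason: each is present in the main annotated transcript and absent from a shorter annotated one, so that reads from transcripts with and without it fall into the same count. Capitals mark CCNG and GGNG, motifs that SRSF2 is known to bind in RNA and between which P95H is known to shift its preference towards CCNG. The search covered the transcribed strand only, and the motifs may overlap each other. Sequences are 5′ to 3′ from GENCODE 29 transcripts (GRCh38), all from the minus strand.
CASP6 stretch a: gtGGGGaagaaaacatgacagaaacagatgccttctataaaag
CASP6 stretch b: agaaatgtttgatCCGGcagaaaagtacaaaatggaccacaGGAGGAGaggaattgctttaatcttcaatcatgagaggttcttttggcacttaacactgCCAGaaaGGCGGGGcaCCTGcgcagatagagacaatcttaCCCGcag
CASP6 stretch c: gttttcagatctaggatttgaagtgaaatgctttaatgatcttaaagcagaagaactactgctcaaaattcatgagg
BCL2L1 stretch: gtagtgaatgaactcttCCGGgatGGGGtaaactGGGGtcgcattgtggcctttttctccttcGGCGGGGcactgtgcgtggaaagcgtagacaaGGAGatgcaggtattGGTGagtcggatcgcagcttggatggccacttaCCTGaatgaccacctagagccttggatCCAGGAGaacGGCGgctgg
MCL1 stretch: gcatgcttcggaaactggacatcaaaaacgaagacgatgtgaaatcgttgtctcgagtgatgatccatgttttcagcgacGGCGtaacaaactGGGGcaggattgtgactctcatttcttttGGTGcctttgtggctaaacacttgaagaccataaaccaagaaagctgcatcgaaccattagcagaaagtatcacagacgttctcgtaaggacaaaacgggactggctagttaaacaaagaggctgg

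In GRCh38 the CASP6 stretches lie at chr4:109698300-109698342, chr4:109697622-109697768 and chr4:109696410-109696486, and are 43, 147 and 77 bases long. Only stretch b of these 3 holds CCNG, at 4 places, and it also holds 4 GGNG. Of all 9633 coding exons within 5 bases of its length, 90.6% hold at least 1 CCNG and 86.1% at least 1 GGNG. The BCL2L1 stretch (chr20:31721655-31721843, 189 bases) separates the long BCL-XL form from the short BCL-XS form, which promotes death, and holds 3 CCNG and 8 GGNG. Of 4632 coding exons of like length, 94.6% hold at least 1 CCNG and 91.2% at least 1 GGNG, with medians of 4 and 3. The MCL1 stretch (chr1:150578244-150578491, 248 bases) is a whole exon whose skipping gives the short, death-promoting MCL1 form. It holds 0 CCNG and 3 GGNG, where 98.1% of 1163 coding exons of like length hold at least 1 CCNG. Over whole coding sequences, MCL1 had 46.7 GGNG per kb, more than 97.0% of 18635 genes, and CASP9 had the highest density of CCNG among the 8 genes, at 35.3 per kb against a median of 23.4 over all genes. CASP6 and CASP8, with a GC content of 45.3% and 45.0%, were the lowest of the 8 in CCNG, at 14.8 and 14.6 per kb. These are counts of letters, and isoforms were not analysed here.

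Reads counted in genes came to 24546255 to 35477328 per library. Each of the 8 genes was well above the floor of 3 counts, taken as the detection limit and equal to 0.0846 to 0.122 CPM (a gene's share of the reads in genes, after TMM scaling between libraries). The lowest count of any of them was 239 reads, for CASP8 in W33. Exact 95% intervals on single libraries, which cover counting error only, spanned at most ±12.9% of the value. SRSF2 itself averaged 486 ± 38.3 CPM (SD, n = 4) in WT and 503 ± 64.3 CPM (n = 4) in P95H clones; since the edit is a substitution, its level does not check the labels. As RNA of whole cultures was measured, fewer cells of a type and less RNA per cell cannot be told apart. All 10 markers of an erythroleukaemia cell were found at 1 CPM or more on average, summing to 3311 to 5205 CPM in WT and 3095 to 8157 CPM in P95H clones. Defining lymphocyte, myeloid and fibroblast markers summed to at most 31.7, 60.8 and 10.2 CPM in any library, with MS4A1 and LUM at 0 in all of them, while 6 epithelial markers summed to 478 to 1305 CPM and KRT5 was at 0. W33 stood apart from the other WT clones at 11.1% of genes (edgeR adjusted p), a share that was 0.0197% or less for each other WT clone and 0.452% or less for each P95H clone, so log2 differences without W33 are given where they differ from the main value by more than 1.5 times.

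Per kb of annotated exon, the survival genes had the highest read density and the death-receptor genes the lowest. Read density, in CPM per kb of annotated exon averaged over 9 libraries, was 49.5 for MCL1, 40.2 for BCL2L1 and 24.3 for CASP6. It was 7.80 for CASP2 and 7.36 for CASP9, and 2.37 for CASP10, 2.29 for CASP8 and 1.59 for CFLAR. MCL1 lay above BCL2L1 in 8 of 9 libraries, the exception being W33, and BCL2L1 above CASP6 and CASP6 above CASP2 in 9 of 9. Neighbours in this order that did not separate were CASP2 and CASP9 (5 of 9 libraries in that order) and CASP10 and CASP8 (5 of 9). CASP9 lay above CASP10 in 9 of 9 and CASP8 above CFLAR in 8 of 9, the exception again being W33. The exon length used counts every annotated transcript, retained introns included, and was 22529 bases for CFLAR against 7243 for CASP8. In reads not divided by length, CFLAR lay above CASP8 in all 9 libraries. With the smaller basic set of transcripts CASP2 moved to 14.5 and CASP8 to 4.21 CPM per kb, above CASP10 at 2.69, and the order of the other genes stayed as given.

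**Figure D1:**
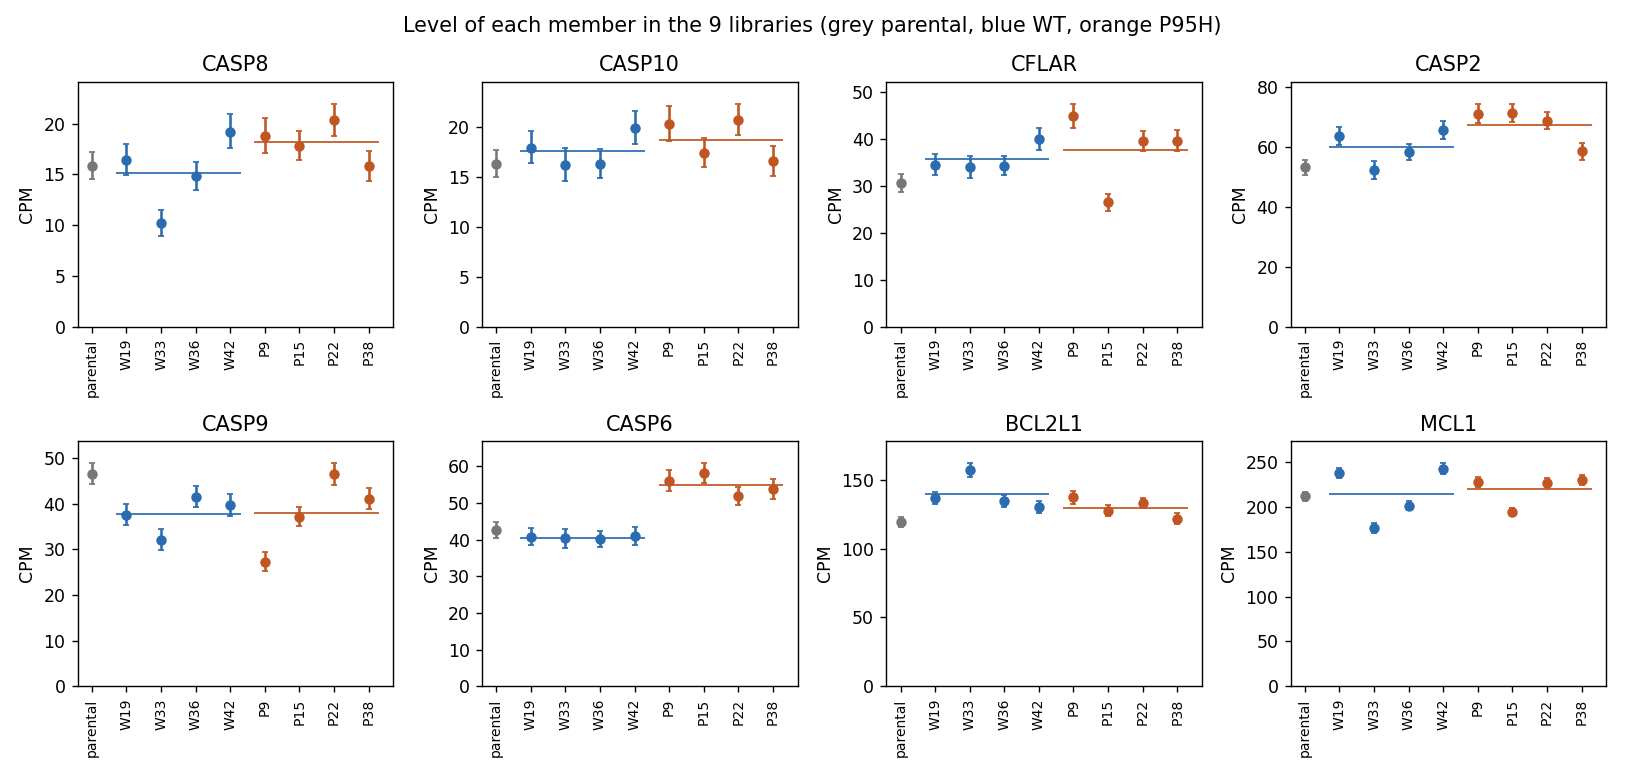
Level of each gene in CPM (vertical axes, from 0) in each of the 9 libraries (horizontal axes), with exact 95% counting intervals as bars and horizontal lines at the means of the 4 WT and 4 P95H clones. CASP6 is the only panel in which the groups do not overlap; CASP8 is lowest in W33 (10.2 CPM), CFLAR in P15 (26.5 CPM) and CASP9 in P9 (27.3 CPM).

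CASP6 was higher in every P95H clone than in any WT clone. Its level was 40.9 CPM in W19, 40.3 in W33, 40.1 in W36 and 41.0 in W42, while P9 had 56.1 CPM, P15 58.2, P22 52.0 and P38 53.8. The parental library, at 42.7 CPM, lay just above the WT clones and below all P95H clones. The means were 40.6 ± 0.410 CPM (SD, n = 4) and 55.0 ± 2.69 CPM (n = 4), a ratio of 1.36, and the lowest P95H clone was 1.27 times the highest WT clone. The log2 difference was 0.43 (SE 0.09, 95% interval of the fold 1.17 to 1.54).

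Under the main test, edgeR's quasi-likelihood test with Benjamini-Hochberg adjustment over 18173 genes, CASP6 did not pass (adjusted p = 0.282), and neither did any other of the 8 genes or of all genes tested (0% called). With no adjustment, CASP6 was the only one of the 8 genes under 0.05 in edgeR, where 11.7% of all genes were. DESeq2 and limma-voom with quality weights, both planned as alternatives, called it, with adjusted p of 0.00023 and 0.0481. DESeq2 called 1.44% of all genes (0.814% higher and 0.622% lower in P95H clones) and limma-voom 0.325% (0.209% higher and 0.116% lower). Groups failed to overlap in 1 of the 8 genes, CASP6, and in 8.44% of all genes. With any 1 clone left out its log2 difference stayed at 0.40 to 0.45, and its unadjusted p was under 0.05 in 17 of 17 edgeR fits, with adjusted p from 0.135 to 0.574 over the 16 that were alternatives. Of the 8 genes, 6 had a log2 difference above 0 and 2 below, where 52.1% of all genes were above 0.

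The WT clones were unusually alike at CASP6. Their coefficient of variation was 1.01%, while counting error alone gave each WT library an interval of ±5.60 to 6.42%, and 21 of 18173 genes had a smaller SD of log2 CPM among WT clones. The P95H clones had a coefficient of variation of 4.89%, with intervals of ±4.56 to 5.15%. In neither group can a coefficient of variation be set directly against such 95% intervals, which are wider than an SD of counting error. The counting interval of each WT clone held the levels of the other WT clones. Differences among the WT clones are therefore below what the read numbers can resolve.

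CASP6 shares 105 exon bases with MCUB, a gene of the opposite strand, and whether the counting used strand is not known here. MCUB averaged 20.7 ± 1.34 CPM in WT and 19.9 ± 2.32 CPM in P95H clones (SD, n = 4) with overlapping groups. The 20 tested genes nearest to CASP6 on chromosome 4 had a median of 0.02 to 0.17 (log2 CPM minus the mean of WT clones) in the P95H clones, against 0.36 to 0.52 for CASP6. Medians of all genes tested were 0.02 to 0.04 in these clones. The 3 tested genes next to CASP6 on one side also lay above every WT clone in all P95H clones. So did RPL34-DT on the other side, but none of the rest of the 20, where 4.53% of all genes tested did so. Margins were narrow for PLA2G12A (0.15 in P22 against 0.12 in W19) and RPL34-DT (0.47 in P9 against 0.46 in W36). On the same scale, P9, P15, P22 and P38 had 0.54, 0.50, 0.15 and 0.37 for PLA2G12A, a phospholipase, and 1.30, 1.42, 2.84 and 0.68 for CFI, complement factor I. They had 0.83, 0.97, 1.19 and 0.76 for the antisense RNA ENSG00000273447, which shares 0 exon bases with CASP6 and had 5 to 41 reads per library. The part of a shared shift of these neighbours in the CASP6 values was not tested. Summed CPM of 10 interferon-response genes also separated the groups, at 102 to 122 in WT and 130.3 to 190.5 in P95H clones. Of these genes, 7 averaged 1 CPM or more. IFIT3 (log2 1.35) and STAT2 (0.87) were higher in all P95H clones, with DESeq2 adjusted p of 0.0046 and 0.0209. OAS3 (log2 1.83, DESeq2 adjusted p = 0.0085) had overlapping groups. ISG15 had a log2 difference of -0.21, which was 0.35 without W33. That clone had 29.1 CPM of ISG15, against 7.33 to 16.1 in the other WT clones. None of them passed the adjusted test in edgeR. The part of this list in the CASP6 values was not tested. The summed erythroid markers overlapped between the groups and were lowest in P22 and highest in P15. Of the epithelial markers, KRT8 was lower in all P95H clones (302 ± 100.3 against 545 ± 123 CPM, SD, n = 4, log2 -0.87, adjusted p = 0.318 in edgeR and 0.0466 in DESeq2), and the sum of the list was 478 to 846 CPM in P95H and 817 to 1305 CPM in WT clones. Its part in the CASP6 values was not tested.

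CASP8, CASP10 and CFLAR, which meet at the death receptors, are neighbours on chromosome 2, in the order CFLAR, CASP10, CASP8. None of the 3 passed a test between P95H and WT clones, and CASP8 and CASP10 were lowest in W33 while CFLAR was lowest in P15. CASP8 was at 16.4 CPM in W19, 10.2 in W33, 14.8 in W36 and 19.2 in W42, while P9 had 18.8 CPM, P15 17.8, P22 20.3 and P38 15.8. W33 was the lowest of the 9 libraries, and its counting interval of 8.92 to 11.5 CPM did not reach that of any other library. The group means of 15.2 ± 3.78 and 18.2 ± 1.91 CPM (SD, n = 4) gave a log2 difference of 0.25 (SE 0.19, edgeR adjusted p = 0.616), which was 0.11 with W33 left out.

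CASP10 ranged from 16.2 CPM in W33 to 19.9 in W42 among WT clones and from 16.6 CPM in P38 to 20.7 in P22 among P95H clones, with means of 17.6 ± 1.74 and 18.8 ± 2.07 CPM (SD, n = 4). The log2 difference was 0.08 (SE 0.13, adjusted p = 0.841 in edgeR), and 0.023 (without P22) to 0.14 (without P38) with 1 clone left out, 0.052 without W33.

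CFLAR stood at 34.4 CPM in W19, 33.9 in W33, 34.2 in W36 and 39.8 in W42, while P9 had 44.7 CPM, P15 26.5, P22 39.4 and P38 39.5. P9 was the highest and P15 the lowest of all 9 libraries, both of them P95H clones. Means were 35.6 ± 2.82 and 37.5 ± 7.79 CPM (SD, n = 4), and the log2 difference of 0.06 (SE 0.16, edgeR adjusted p = 0.902) was -0.05 without P9 and 0.20 without P15.

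Because CFLAR competes with CASP8, their reads were also compared within each library, where scaling between libraries plays no part. CFLAR had 2.09 reads per CASP8 read in W19, 3.34 in W33, 2.31 in W36 and 2.07 in W42, while P9 had 2.38, P15 1.49, P22 1.94 and P38 2.50. The parental value was 1.92. W33 was the highest and P15 the lowest, with 95% counting intervals of 2.89 to 3.87 and 1.34 to 1.66 that overlapped those of no other library. In W33 it was CASP8 that was low, and in P15 it was CFLAR. CASP10 had 1.59 reads per CASP8 read in W33 and 0.981 to 1.102 in the other libraries. The groups overlapped in the CFLAR to CASP8 ratio, and no test was made on ratios.

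**Figure D2:**
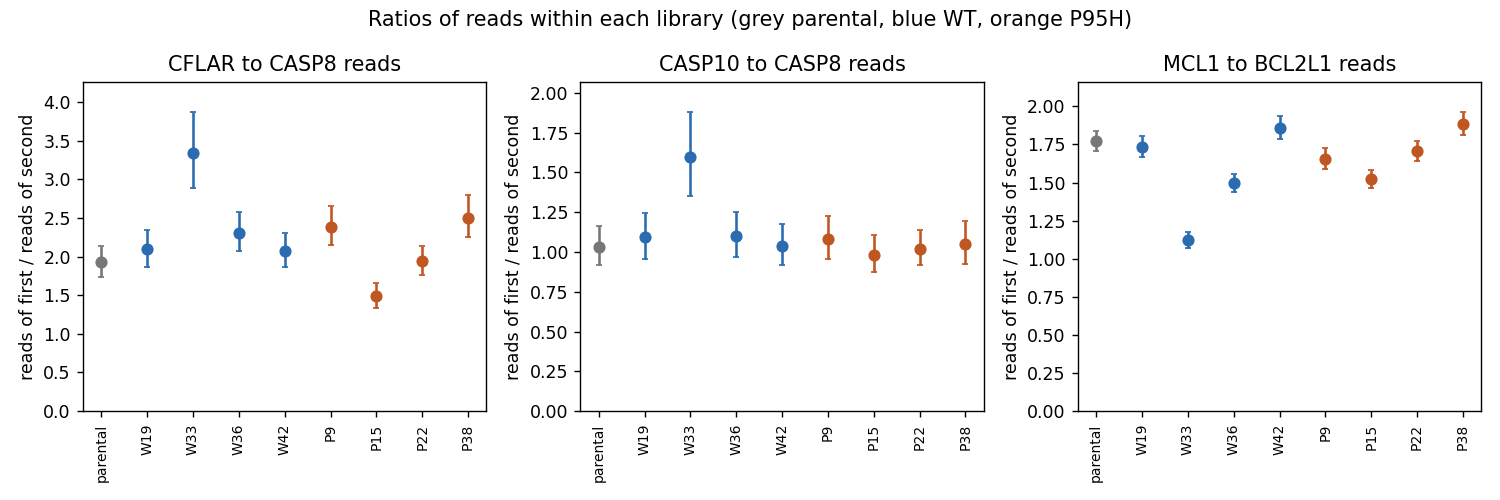
Reads of the first gene divided by reads of the second in each library, with exact 95% counting intervals. The vertical axes start at 0 and are not corrected for gene length; W33 stands out in each panel (3.34, 1.59 and 1.12), and P15 has the lowest CFLAR to CASP8 ratio (1.49).

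CASP9, the initiator of the mitochondrial route, was at 37.6 CPM in W19, 32.1 in W33, 41.4 in W36 and 39.6 in W42, while P9 had 27.3 CPM, P15 37.1, P22 46.4 and P38 41.0. P9 was the lowest of all libraries, and the parental line, at 46.5 CPM, and P22 were the highest. The means of 37.68 ± 4.05 and 37.96 ± 8.07 CPM (SD, n = 4) were nearly equal (log2 -0.00279, SE 0.16, edgeR adjusted p = 0.996, 95% interval of the fold 0.777 to 1.28). The log2 difference was 0.11 without P9 and -0.062 without W33.

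CASP2, the initiator of the PIDDosome, was at 63.8 CPM in W19, 52.4 in W33, 58.2 in W36 and 65.7 in W42. P9 had 71.1 CPM, P15 71.3, P22 68.8 and P38 58.6. P9, P15 and P22 lay above every WT clone and P38 within their range, with the parental library at 53.2 CPM. The means of 60.01 ± 5.999 and 67.4 ± 6.02 CPM (SD, n = 4) gave a log2 difference of 0.15 (SE 0.11, edgeR adjusted p = 0.602).

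BCL2L1 and MCL1 passed no test between the groups. BCL2L1 was at 137 CPM in W19, 157 in W33, 135 in W36 and 131 in W42, while P9 had 137 CPM, P15 128, P22 133 and P38 122. W33 was the highest and the parental library, at 119.5 CPM, the lowest. Means were 139.8 ± 11.8 and 130.0 ± 6.81 CPM (SD, n = 4), with a log2 difference of -0.12 (SE 0.10, edgeR adjusted p = 0.663, 95% interval of the fold 0.785 to 1.08). It was below 0 under all 18 alternatives and -0.05 with W33 left out. BCL2L1 shares 1424 exon bases with ABALON, an antisense RNA of the opposite strand that has no count of its own here. Whether reads of ABALON fall into the BCL2L1 count is not known.

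MCL1 was at 238 CPM in W19, 176 in W33, 202 in W36 and 243 in W42, while P9 had 228 CPM, P15 194, P22 227 and P38 229.9. W33 was again at an extreme, here the lowest. The means of 215 ± 31.4 and 219.8 ± 17.1 CPM (SD, n = 4) differed by 0.02 on the log2 scale (SE 0.12, edgeR adjusted p = 0.961, 95% interval of the fold 0.84 to 1.23), and by -0.05 without W33. MCL1 had 1.12 reads per BCL2L1 read in W33 and 1.496 to 1.89 in the other 8 libraries. The counting interval in W33, 1.07 to 1.17, lay below those of all other libraries.

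**Figure D3:**
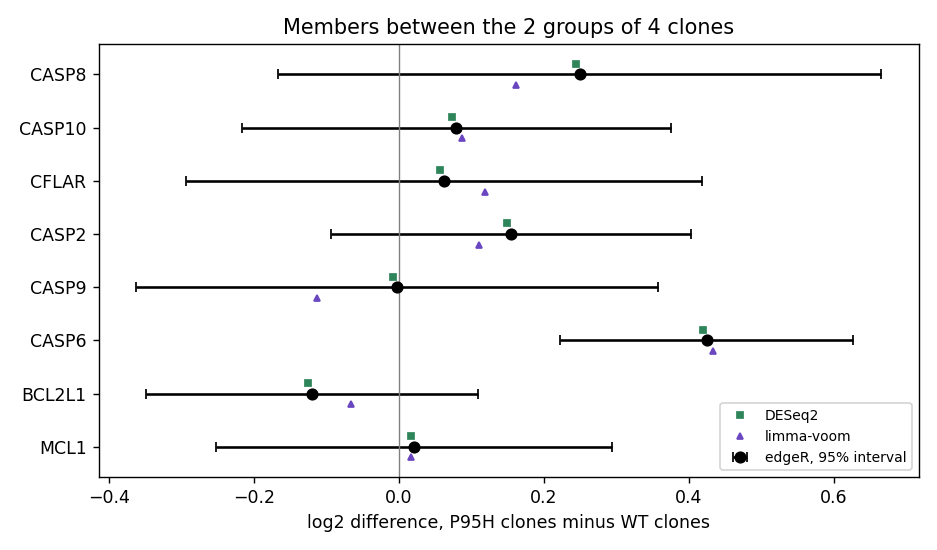
Log2 difference of each gene between 4 P95H and 4 WT clones (horizontal axis), as the edgeR estimate with its 95% interval (black), by DESeq2 (green squares) and by limma-voom (purple triangles). CASP6, at 0.43 in edgeR, is the only gene whose interval does not reach 0, and its adjusted p over all genes was 0.282.

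The spread between clones of a group, as the SD of log2 CPM, was 0.05 for CASP6, 0.10 for BCL2L1, 0.14 for CASP2 and 0.15 for CASP10. It was 0.17 for MCL1, 0.25 for CFLAR, 0.26 for CASP9 and 0.30 for CASP8, where the median of all genes tested was 0.28. BCL2L1 thus varied less between clones than all but 4.33% of genes, and CASP8 varied more than 52.5% of them.

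Against the WT clones, the parental line showed no called difference in any of the 8 genes. In edgeR 0 of 8 were called (0 at an unadjusted p under 0.05, 0 in DESeq2), and 0.00485% of all genes were. DESeq2 called 0.0339% of all genes, 0.0145% higher and 0.0194% lower. Log2 differences ran from -0.24 for BCL2L1 (SE 0.17) to 0.29 for CASP9 (SE 0.24). With 1 parental library, this test assumes that it varies like the clones.

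In 8 further comparisons, 1 clone at a time was compared with the other 3 clones of its genotype, and edgeR called 0 of the 8 genes in each. Of all genes, edgeR called 11.1% in W33 (4.76% higher and 6.34% lower), 0.0197% in W42, 0.00492% in P15, 0.452% in P22 (0.349% higher and 0.103% lower) and 0% in the remaining 4. DESeq2 called 0.00492% in W19, 0.0344% in W36, 0.0393% in W42, 2.4% in P22 and 0.0934% in P38, and none of the 8 genes there. With no adjustment, 1 of the 8 genes was under 0.05 in edgeR in each of W33, P9 and P15 and 0 in the other 5 clones. Over all genes that share was 30.2% in W33, 3.82% in P9 and 7.78% in P15, and 0.56% in W19, 0.629% in W36, 1.53% in W42, 8.53% in P22 and 2.4% in P38. In W33, CASP8 was lower by a log2 of -0.70 (SE 0.22, unadjusted p = 0.011, adjusted p = 0.0703 in edgeR and 0.0316 in DESeq2); DESeq2 called 18.2% of all genes in that clone (8.29% higher and 9.87% lower). In P15, CFLAR was lower by a log2 of -0.64 (SE 0.18, edgeR adjusted p = 0.362 and DESeq2 0.0376), where DESeq2 called 1.48% of genes (0.703% higher and 0.777% lower). In P9, CASP9 was lower by a log2 of -0.60 (SE 0.21, edgeR adjusted p = 1 and DESeq2 0.38), where DESeq2 called 0.226%. CASP8 in W33 and CFLAR in P15 were the only calls of DESeq2 among the 8 genes in these comparisons.

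Genes next to these 3 were looked at for a shift of the whole chromosome stretch. Around CASP8 in W33, 14 of the 20 nearest tested genes were below the mean of WT clones, with a median of -0.26 against -0.54 for CASP8 itself. The 8 genes themselves are left out of these sets. On the same scale, the median of all genes tested was -0.03 in W33, 0.04 in P15 and 0.02 in P9. Around CFLAR in P15 the median was -0.00186, with 10 of 20 genes below 0, against -0.42 for CFLAR. The overlapping IMPDH1P10 and CFLAR-AS1, which share 1488 and 777 exon bases with CFLAR on the other strand and whose reads may not be separable from it, were at -0.78 and -0.66 there. Around CASP9 in P9, 15 of 20 genes were below 0, with a median of -0.15 against -0.46 for CASP9. The genes next to it on either side, DNAJC16 and CELA2B, were at -0.06 and -0.17. CELA2B shares 106 exon bases with CASP9 on the other strand.

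**Figure D4:**
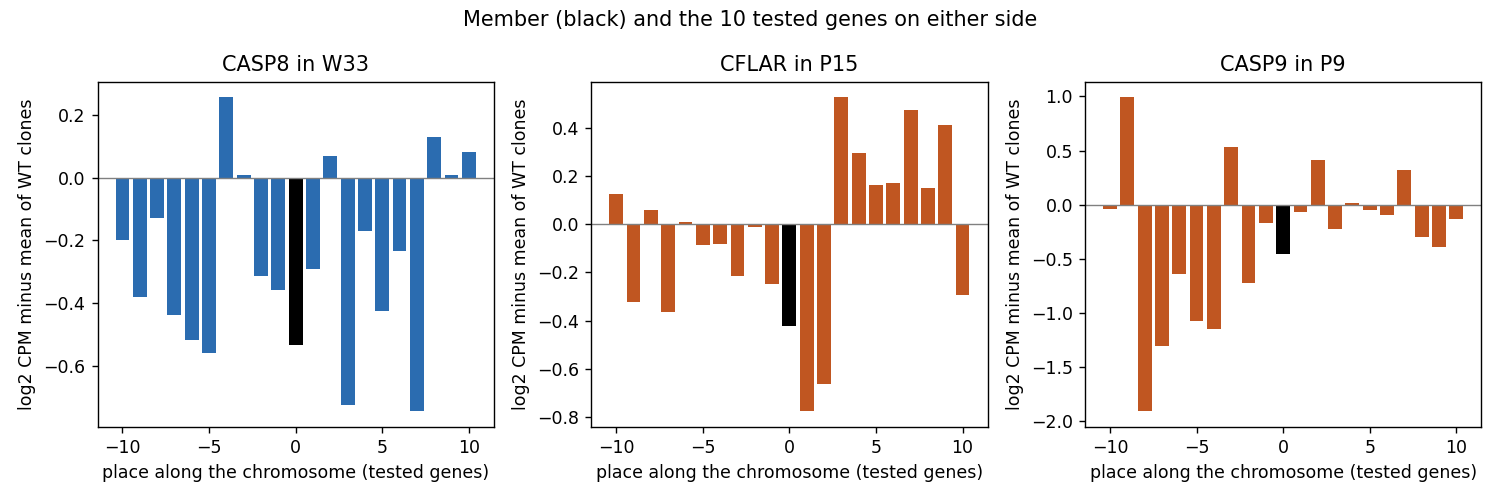
Log2 CPM minus the mean of WT clones (vertical axis) for a gene (black, place 0) and the 10 tested genes on either side along the chromosome (horizontal axis), in the clone where that gene was lowest. CASP8 (-0.54 in W33), CFLAR (-0.42 in P15) and CASP9 (-0.46 in P9) lie below the medians of their neighbours (-0.26, -0.00186 and -0.15).

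Of 73 other genes of the pathway, from death receptors to caspase substrates, 54 had enough reads to test. In edgeR 0 passed over all genes, 4 were higher and 3 lower in P95H clones at an unadjusted p under 0.05 (6.07% and 5.65% of all genes), and DESeq2 and limma-voom each called 0. Their median log2 difference was 0.02, against 0.01 for all genes tested. Groups did not overlap at 2 genes higher and 3 lower, where 4.53% and 3.91% of all genes did so.

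The inflammatory caspases CASP1, CASP5 and CASP12 and the epidermal CASP14 were at or near 0 in all libraries, and CASP4 was at or below 0.344 CPM except in P22 (1.64 CPM) and the parental line (1.53 CPM).

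Of the receptors, TNFRSF1A, the main TNF receptor, was lower in all P95H clones (29.2 ± 2.53 against 37.71 ± 4.47 CPM, log2 -0.38), and TNFRSF21 averaged 6.64 ± 3.76 against 3.11 ± 1.44 CPM with overlapping groups. The Fas receptor gene FAS averaged 0.00692 CPM over the 9 libraries, below the floor. The TRAIL receptors TNFRSF10A and TNFRSF10B, at 22.6 and 31.8 CPM on average, overlapped between groups. Of the adaptors, RIPK1, a kinase of the receptor complex, was higher in all P95H clones (53.3 ± 3.61 against 43.6 ± 3.34 CPM, log2 0.28), and DEDD differed by a log2 of 0.17 with overlapping groups. Neither receptor list nor adaptor list had a gene past the adjusted test.

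In the mitochondrial route, AIFM1, which leaves the mitochondrion during cell death, was lower in all P95H clones (94.6 ± 3.001 against 121 ± 12.6 CPM, log2 -0.37, edgeR adjusted p = 0.319, DESeq2 0.0545). ENDOG, a nuclease, differed by -0.35 with overlapping groups, and by -0.14 without W33, which had 86.0 CPM against 52.0 to 56.6 in the other WT clones. BOK, a BAX-like effector, differed by -0.50 and BAX by -0.09, which was 0.086 without W33. Of the BH3-only proteins, which antagonise BCL-XL and MCL1, BMF was at 1.36 to 2.60 CPM in WT clones while P9 had 3.33 CPM, P15 15.9, P22 6.09 and P38 2.24, with a log2 difference of 1.75 (SE 0.57) and P15 far above the rest. Without P15 the difference was 0.93. BID differed by -0.23, and by -0.12 without W33.

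BCL2L12 was lower in all P95H clones (71.2 ± 1.41 against 86.4 ± 20.9 CPM, log2 -0.30), and W33, at 118 CPM, stood above the other WT clones at 74.7 to 77.7. Without W33 the log2 difference was -0.096. BCL2L2 (BCL-w) differed by -0.03, and by -0.083 without W33. HUWE1, a ubiquitin ligase that marks MCL1 for destruction, was higher in all P95H clones (406 ± 49.0 against 302 ± 49.5 CPM, log2 0.42, edgeR adjusted p = 0.338), while FBXW7, another such ligase component, differed by 0.22 with overlapping groups, and by 0.11 without W33. XIAP and BIRC2, of the inhibitors of apoptosis proteins, differed by 0.23 and -0.19, and the caspase substrates GSN and PAK2 by 0.26 and 0.12. Without W33 these were 0.099 for XIAP, -0.31 for BIRC2 and 0.029 for PAK2.

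**Figure D5:**
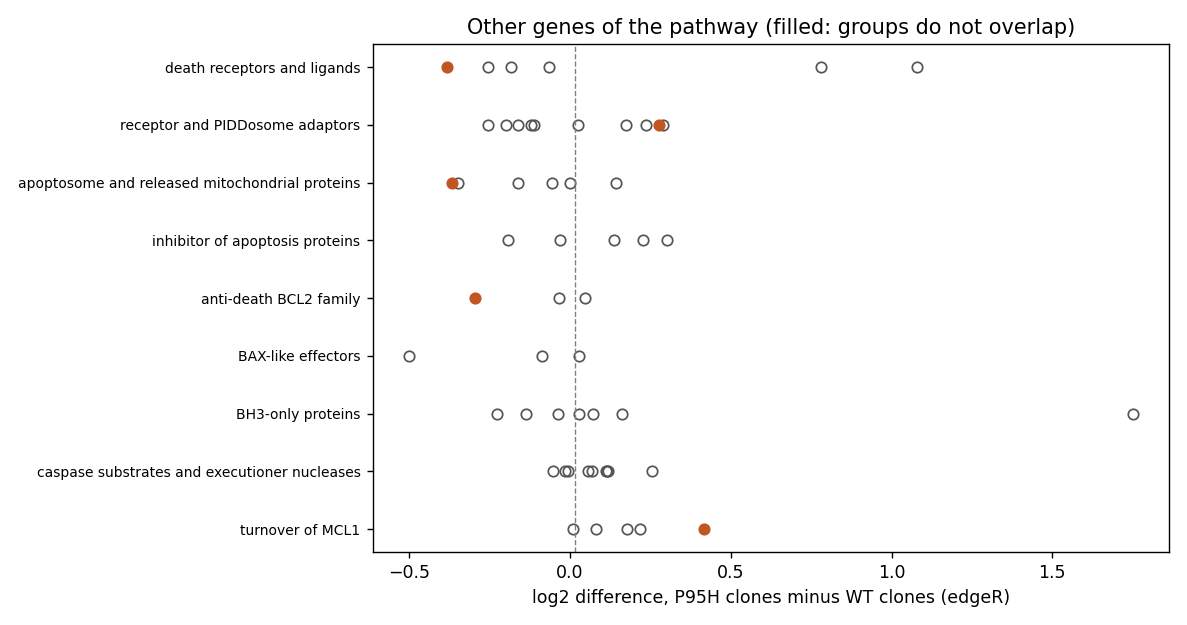
Log2 difference between P95H and WT clones (horizontal axis) of the 54 tested pathway genes, 1 row per group of genes, with filled points where the 4 P95H and 4 WT clones do not overlap. The dashed line is the median of all genes tested (0.01); the filled points are HUWE1 (0.42), RIPK1 (0.28), BCL2L12 (-0.30), AIFM1 (-0.37) and TNFRSF1A (-0.38).

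In W33, compared with the other WT clones, edgeR called 8 of 60 tested pathway genes, 4 higher and 4 lower, where 11.1% of all genes were called. DESeq2 called 16 of 60, where it called 18.2% of all genes. CASP8AP2, which binds the CASP8 prodomain, was lower by a log2 of -1.45 (adjusted p = 0.0168), APAF1, the core of the apoptosome, by -1.05 (0.0279), ROCK1 by -0.96 (0.0238) and BIRC6 by -0.59 (0.0345), all edgeR adjusted p. BCL2L12, ENDOG, LMNA and TRAF2 were higher by 0.66, 0.67, 0.60 and 0.46. In P22 only XAF1, an antagonist of XIAP, was called (log2 6.22, adjusted p = 0.00727 in edgeR), at 5.33 CPM against at most 0.125 in the other clones and 0.662 in the parental line. In the remaining 6 comparisons of single clones edgeR called 0 of 60, with 0 to 6 at an unadjusted p under 0.05, where 0.56% (W19) to 7.78% (P15) of all genes were. DESeq2 called 4, all in P15, where it called 1.48% of all genes.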

How the data were processed

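RNA from 9 K562 libraries was purified with a miRNeasy kit, selected for poly(A), made into TruSeq libraries and read on a HiSeq2000, per the labels' protocols. What the authors deposited is a raw count of reads for each Ensembl 75 gene, not normalized. TopHat2 2.0.4, HTSeq 0.6.1p1 and build GRCh37 are named in the submitters' processing notes, while the counting mode and the use of strand are not. The 5 summary values per file were left out (reads in no gene 47.6 to 49.1%, ambiguous 2.23 to 2.55%, aligned more than once 5.06 to 6.06%). GENCODE 29 (GRCh38) gave gene order, exon lengths and coding sequence, and no coordinate was mixed with GRCh37. Symbols (52526 IDs) came from a separate reference list of gene names, and from GENCODE 29 where that list had none.

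Groups came from sample titles, and no replicate numbers are shared between groups. P95H and WT clones were compared with edgeR 4.0.16 in R 4.3.3 (filterByExpr, TMM, robust quasi-likelihood F test, Benjamini-Hochberg over all genes, threshold 0.05), which was tested on simulated data with 200 changed genes. The parental line and single clones were tested in 3-group models. Alternatives used DESeq2 1.42.0, limma-voom (limma 3.58.1), sva 3.50.0, other scaling, filters and sets of clones. Log2 CPM used a prior count of 2. The 8 genes and the gene lists were chosen with earlier results of these data known; 73 pathway genes were listed, and from each list the 2 genes of at least 1 CPM with the smallest edgeR p are named. Some other genes of the pathway are not reported here and enter no count of these lists. Other genes named from these lists (CASP1, CASP4, CASP5, CASP12, CASP14, FAS, TNFRSF10A, TNFRSF10B, and those called in single clones) were picked after their values were seen. The coding stretches, the motif counts and the rule of an unadjusted p for members in single clones were chosen after values were seen. Single markers, KRT8 among them, and the neighbours of CASP6 and CASP9 that are named were also picked after their values were seen. The exon lengths of the GENCODE basic set, and the pathway differences with 1 clone left out, were added after seeing the data. No genes were named for likeness, since no member spanned more than 1 log2 unit over the 9 libraries.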

Additional observations from a re-analysis of the deposited data

Results flagged for a closer look

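In 2 of the 16 sets of 4 clones checked (8 genes in 2 groups), 1 clone lay far from the other 3, its gap to the nearest exceeding 0.829 of the range; chance gives about 1 such set in 20. CFLAR was at 39.8 CPM in W42 and 33.9 to 34.4 CPM in the other WT clones. MCL1 in P15, at 194 CPM, lay below P9, P22 and P38, which had 227 to 229.9 CPM.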

How the results depend on the processing

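Between P95H and WT clones, edgeR called 0 genes and 0 of the 8. Over all genes, 2 were called with no filter on low counts, 261 by DESeq2, 59 by limma-voom, 0 to 1 with 1 clone left out (1 without W19) and 5 without W33 and P22. DESeq2 and limma-voom each called 1 of the 8, CASP6. CASP6, CASP2, CASP8 and CASP10 stayed above 0 and BCL2L1 below 0 under all 18 alternatives. CASP9 turned to 0.0051 with no filter and ran from -0.12 to 0.11 with 1 clone left out, above 0 without W36, W42, P9 or P15. CFLAR ran from -0.047 (without P9) to 0.20. MCL1 ran from -0.052 to 0.077, below 0 without W33, W36 or P9, and was -0.039 with 1 surrogate variable and -0.069 without W33 and P22. The cause was not tested.

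For the parental line, edgeR called 1 gene, against 5 with no filter, 7 by DESeq2, 4 against all 8 clones and 0 to 1 with a WT clone left out (0 without W19 or W42). Against all 8 clones, CASP6 was -0.14 and CASP8 -0.061. With 1 WT clone left out, CASP8 ran from -0.085 (without W33) to 0.19 and MCL1 from -0.10 to 0.035 (above 0 without W19 or W42).

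For single clones, the count of genes by DESeq2 was 3693 for W33 against 2258 by edgeR, 489 for P22 against 92, 301 for P15 against 1 and 8 for W42 against 4. Where edgeR called 0, DESeq2 called 46 (P9), 19 (P38), 7 (W36) and 1 (W19). With no filter edgeR called 1 in W19, 25 in P15, 251 in P22 and 1 in P38. With W33 left out it called 1 in P9, 11 in P15 and 253 in P22.

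No paired analysis was possible because the groups share no replicate numbers. The basic exon set, added after seeing the data, moved the read densities of BCL2L1, CASP2, CASP8 and CASP10 by more than their spread over the libraries. Depth limits CASP8 most, at 239 reads in W33. Isoforms, protein levels and caspase activity were not analysed here.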
